A study of Mus musculus with 8 samples.

Results

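The genes of the skeletal muscle contractile apparatus were a list of 40 chosen by name, made up of sarcomere, calcium handling and muscle metabolism genes, among 35975 genes summed from the transcript tables. All 40 had at least 1 estimated count in some library, and 24 passed the filter on low counts and were tested. The libraries came from fibrosarcomas that were implanted under the skin of syngeneic wild-type mice (genotype WT C57BL/6). The tumors were digested, red cells were lysed, and the cells were run over magnetic columns. The iron positive group is the eluate that the magnet had held (4 libraries, tags 3L, 3R, 4R and 5L), and the iron negative group is the flowthrough (4 libraries, same tags). The labels name no antibody sort, no transgene and no treatment of the mice, and they do not say whether the tags stand for separate animals, so p-values measure the spread between these libraries.

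Skeletal muscle contracts by sliding of thick filaments of myosin along thin filaments of actin inside repeating units called sarcomeres. Calcium released from the sarcoplasmic reticulum binds troponin C, which lets troponin I and troponin T move tropomyosin off the myosin sites of actin. Fast and slow fibers use different genes for the same roles, and embryonic and perinatal fibers use further myosin heavy chains. Muscle fibers are large cells with many nuclei, and resident stem cells that express Pax7 renew them.

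Estimated counts totalled 19.04 to 22.59 M per iron positive library and 20.6 to 24.31 M per iron negative library. Macrophage transcripts dominated both fractions, with summed levels of 14 markers of 29937.9 to 37766.4 TPM (a level corrected for transcript length) in iron positive and 37976.1 to 39314.9 TPM in iron negative libraries. The iron positive libraries did not resemble each other in other cell types: the summed TPM of 13 endothelial markers was 114.0, 1059.8, 762.8 and 193.0 (3L, 3R, 4R, 5L), against 33.4 to 58.5 in the iron negative libraries. All 40 muscle genes together held 1658 to 3192 estimated counts in an iron positive library and 836 to 1052 in an iron negative one, so muscle RNA was a trace in every library. In these bulk samples fewer cells of a type and less RNA per cell cannot be told apart.

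Muscle genes were higher in the iron positive fraction, and those of fast fibers made up most of the genes that passed. Of the 24 tested genes 13 rose and none fell in the iron positive libraries. The test was edgeR's quasi-likelihood F-test with p-values adjusted after Benjamini and Hochberg over 13343 genes, and an adjusted p under 0.05 called a gene. Over all genes tested 8.49% were called higher and 5.21% lower, so that 62.0% of all calls were higher; this split was 76.4% with scaling by library totals and 98.5% with scaling to the macrophage markers, and the same 13 muscle genes stayed called under both. The 13 were the myosin heavy chain genes Myh4 and Myh1, the light chain genes Myl1 and Mylpf, the myosin-binding protein gene Mybpc2, the actin gene Acta1, the troponin genes Tnnt3, Tnnc1 and Tnnc2, the actinin gene Actn3, the calcium pump gene Atp2a1, and the metabolic genes Ckm and Pygm. The other 11 tested genes did not pass; at an unadjusted p under 0.05 edgeR had 15 of the 24 higher and none lower. The median log2 fold change of the tested muscle genes was 1.78, against -0.01 over all genes tested. In a fit with no filter, 21 of 40 muscle genes were higher and none lower, where 5.99% of 21853 genes were called higher. With the tag as a replicate block 14 genes rose, the additional one being Tpm2 (adjusted p = 0.0165). That fit called 1705 genes higher over all genes, against 1133 in the main fit. In TMM-scaled CPM (a level not corrected for length), 23 of the 40 genes were higher in every iron positive library than in any iron negative library, as were 8.77% of all genes with a count. Among the 13 called genes Myh1 and Pygm overlapped on the TPM scale, and the other 11 did not.

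**Figure D1:**
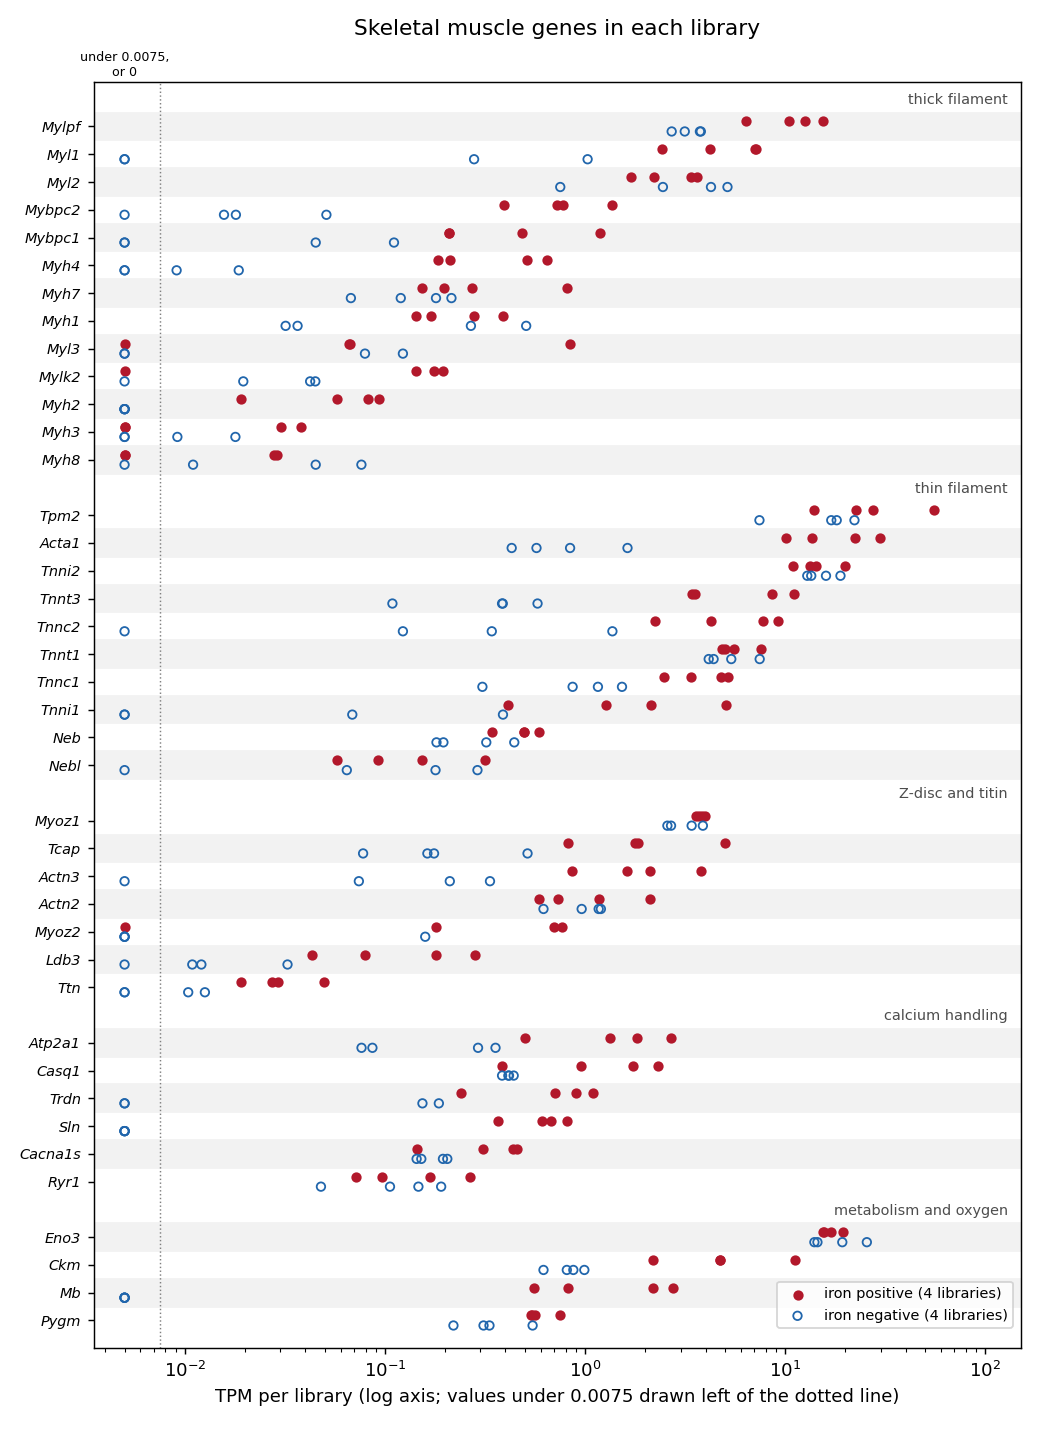
Each point is the TPM of 1 library (horizontal log axis), with iron positive libraries as filled points above iron negative libraries as open points for each of the 40 genes, grouped by role. Acta1, Tnnt3, Mb and Sln separate the fractions with no overlap, whereas Tnni2, Tnnt1, Myoz1 and Eno3 stand at like levels in both.

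Leaving out single libraries changed these counts. With iron negative 3L, 3R or 4R left out, edgeR called no muscle gene, as it called no gene of any kind. In these 3 fits 20, 19 and 19 of the 29 muscle genes tested were higher at an unadjusted p under 0.05. Without iron negative 5L 1 of 29 tested muscle genes passed (20 at an unadjusted p under 0.05), where 26 genes rose over all genes. Without an iron positive library 12 of 24 (3L), 11 of 24 (3R), 9 of 24 (4R) and 19 of 29 (5L) tested muscle genes rose. Over all genes these fits called 1402, 1141, 399 and 1487 higher. Without iron positive 4R the calls of Tnnc1 (adjusted p = 0.0816), Tnnc2 (0.0631), Myh1 (0.0693) and Pygm (0.0808) were lost. All 13 called genes kept a positive log2 fold change in each of these fits, and the smallest adjusted p over all genes was 0.0511 to 0.063 in the fits with no call. Limma voom called 6 of the 24 muscle genes and DESeq2 13.

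**Figure D2:**
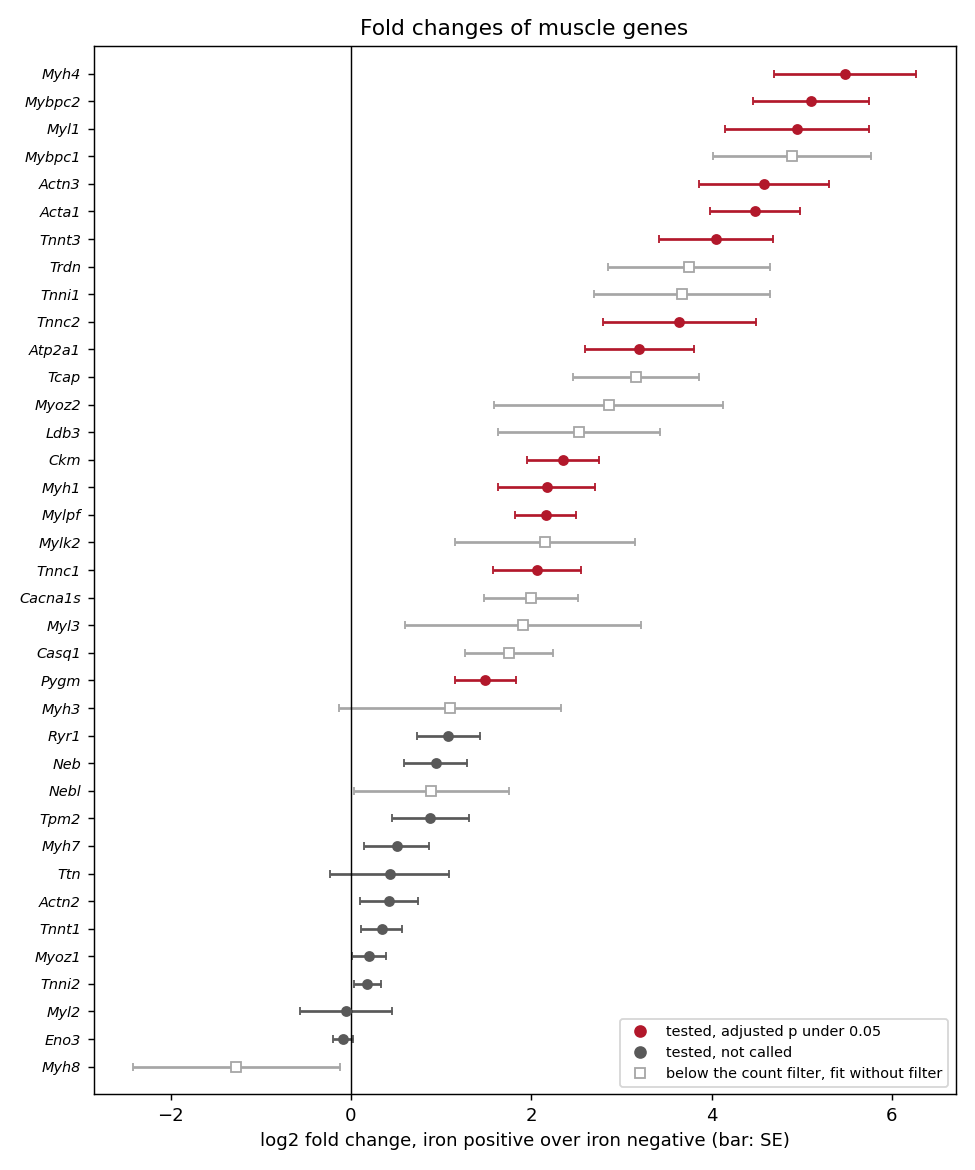
Points are log2 fold changes, iron positive over iron negative, with bars of 1 SE, for the 37 genes with a count in the iron negative libraries. The 13 called genes lie between 1.49 (Pygm) and 5.48 (Myh4), and open squares are genes below the count filter, taken from the fit without it.

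Promoter letters are shown for the called genes Acta1, Myh4, Myh1 and Mylpf, which were higher together, and for Eno3, a muscle enzyme gene whose level did not pass. The windows come from RefSeq (GRCm38.p6) and hold up to 250 bases before the start site, 5′ to 3′ on the gene's strand, and stop where an annotated exon of the gene begins. They are chr8:123894776-123895025 on the minus strand for Acta1, chr11:67237562-67237811 on the plus strand for Myh4, chr11:67199852-67200051 on the plus strand for Myh1, chr7:127211358-127211607 on the plus strand for Mylpf and chr11:70656926-70657175 on the plus strand for Eno3. Capitals mark the MEF2 motif, the CArG box bound by serum response factor, the E-box CAGCTG and TATAAA, searched on both strands.
Acta1: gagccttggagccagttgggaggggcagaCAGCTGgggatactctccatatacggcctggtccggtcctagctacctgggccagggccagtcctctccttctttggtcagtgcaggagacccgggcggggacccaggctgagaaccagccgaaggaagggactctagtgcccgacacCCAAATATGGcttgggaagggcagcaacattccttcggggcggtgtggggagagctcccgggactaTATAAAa
Myh4: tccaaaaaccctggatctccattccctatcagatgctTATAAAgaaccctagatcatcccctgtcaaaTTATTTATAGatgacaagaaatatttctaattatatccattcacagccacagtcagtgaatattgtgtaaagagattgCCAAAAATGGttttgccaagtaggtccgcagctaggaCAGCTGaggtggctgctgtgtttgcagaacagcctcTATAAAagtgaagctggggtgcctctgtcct
Myh1: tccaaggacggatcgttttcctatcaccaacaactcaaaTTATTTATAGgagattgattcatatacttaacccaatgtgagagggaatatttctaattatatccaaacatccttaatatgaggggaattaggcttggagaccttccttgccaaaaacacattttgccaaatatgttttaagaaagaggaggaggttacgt
Mylpf: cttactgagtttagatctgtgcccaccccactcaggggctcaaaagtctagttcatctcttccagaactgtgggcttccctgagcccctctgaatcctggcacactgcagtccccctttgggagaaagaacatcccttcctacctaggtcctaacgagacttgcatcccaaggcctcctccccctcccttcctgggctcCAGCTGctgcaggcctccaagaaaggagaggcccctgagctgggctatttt
Eno3: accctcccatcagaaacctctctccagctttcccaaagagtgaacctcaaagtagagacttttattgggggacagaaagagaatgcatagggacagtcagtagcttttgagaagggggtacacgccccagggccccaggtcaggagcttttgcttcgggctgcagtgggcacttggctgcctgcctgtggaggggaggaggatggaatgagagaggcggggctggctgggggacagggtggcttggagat

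The Myh4 window held every one of these motifs: MEF2 at -182 from the RefSeq start site, the CArG box at -104, CAGCTG at -67, and TATAAA at -213, -179 and -31. The TATAAA match at -179 lies inside the MEF2 match on the other strand. Myh1 had the MEF2 match at -211 with TATAAA inside it at -208, and a second TATAAA at -32 that lies beyond the shown stretch. Acta1 had the CArG box at -73, CAGCTG at -221 and TATAAA at -7, Mylpf had CAGCTG at -51, and Eno3 had none of them. Windows were found for 31 of the 40 genes, and 21 of the 31 held MEF2, CArG or CAGCTG, among them 8 of the 11 called genes with a window. Of 32851 windows of all genes 16.8% held at least 1 of those 3 motifs, 2.92% MEF2, 1.47% CArG, 13.0% CAGCTG and 12.4% TATAAA. These shares are of windows, and some genes have several. The 31 genes had 40 windows, of which 24 held at least 1 of those 3 motifs. By window MEF2 was found in 5, CArG in 6, CAGCTG in 17 and TATAAA in 8. By gene, among the 31, MEF2 was found for 5, CArG for 5, CAGCTG for 15 and TATAAA for 8. The motif counts of these genes include matches beyond the stretch that was left where an exon cut the window short. Myl1 kept 0 bases but counts as a called gene with CAGCTG at -224. Myoz2 counts with MEF2 at -33 and CAGCTG at -12, both beyond its stretch. The called genes Mybpc2, Tnnc1 and Tnnc2 held none of MEF2, CArG and CAGCTG. Genes that were not called, such as Ttn, Casq1, Ldb3 and Myl3, held at least 1 of them, unlike Eno3. Whether motifs differ between called and other muscle genes was not tested. A match is only a description of letters.

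Of the 10 thin filament genes 8 were tested and 4 rose: Acta1, Tnnt3, Tnnc2 and Tnnc1. In this and the next paragraphs values per library stand in the order 3L, 3R, 4R and 5L. Acta1, skeletal alpha-actin (chromosome 8, 123891769 to 123894751, mm10), had 22.3, 29.8, 13.6 and 10.1 TPM in iron positive libraries, against 0.43, 1.63, 0.572 and 0.842 TPM in iron negative libraries. Every iron positive library lay above every iron negative one, and the log2 fold change was 4.48 ± 0.50 (SE; adjusted p = 0.0118), the smallest adjusted p of the list. Reads of actin genes can be shared between near-identical copies, so the absolute level is uncertain. Tnnt3, fast troponin T (chromosome 7, 142498836 to 142516009), had 8.57, 11.1, 3.56 and 3.44 TPM in iron positive libraries, against 0.109, 0.388, 0.579 and 0.385 TPM in iron negative libraries. It rose by 4.05 ± 0.63 log2 units (adjusted p = 0.0173) with no overlap. Tnnc2, fast troponin C (chromosome 2, 164777161 to 164779967), had 9.17, 7.74, 4.27 and 2.23 TPM in iron positive libraries, against 0.342, 1.37, 0 and 0.123 TPM in iron negative libraries, a log2 fold change of 3.64 ± 0.85 (adjusted p = 0.029). Tnnc1, troponin C of slow and cardiac muscle (chromosome 14, 31208312 to 31211729), had 5.20, 3.37, 4.77 and 2.47 TPM in iron positive libraries, against 0.307, 1.53, 1.16 and 0.867 TPM in iron negative libraries. Tnnc1 was the only called gene among 7 of slow type, with a log2 fold change of 2.06 ± 0.49 (adjusted p = 0.0303), and its groups did not overlap either. Without iron positive 3L its adjusted p was 0.0524.

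The other thin filament genes did not pass with the count filter. Tpm2, beta-tropomyosin, which smooth muscle cells and fibroblasts also make, had 13.9, 55.4, 27.5 and 22.5 TPM in iron positive libraries, against 7.44, 22.2, 18.1 and 17.0 TPM in iron negative libraries. It was higher in each of the 4 same-tag pairs although the groups overlapped, with a log2 fold change of 0.88 ± 0.43 (adjusted p = 0.2; 0.80 and adjusted p = 0.0165 in the block fit). Tnni2, fast troponin I, had 14.2, 20.0, 11 and 13.3 TPM in iron positive libraries, against 12.9, 18.9, 16.0 and 13.5 TPM in iron negative libraries, and overlapped fully (0.18 ± 0.15, adjusted p = 0.462). Tnnt1, slow troponin T, had 5.55, 7.55, 4.99 and 4.83 TPM in iron positive libraries, against 7.46, 5.38, 4.39 and 4.15 TPM in iron negative libraries (0.34 ± 0.23, adjusted p = 0.353). Neb, the giant ruler protein nebulin, ranged from 0.341 to 0.588 TPM in iron positive and from 0.181 to 0.443 TPM in iron negative libraries (0.94 ± 0.35, adjusted p = 0.105). Tnni1, slow troponin I, was below the count filter with 1.27, 5.04, 2.14 and 0.41 TPM in iron positive libraries, against 0, 0.389, 0 and 0.0687 TPM in iron negative libraries. Without the filter its log2 fold change was 3.67 ± 0.98 (adjusted p = 0.0463). Nebl, the nebulin relative nebulette, had 20.1 estimated counts over the iron positive and 11 over the iron negative libraries and did not pass without the filter.

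Of the 13 thick filament genes 7 were tested and 5 rose. Myl1, the fast essential light chain (chromosome 1, 66924295 to 66945404), had 7.14, 7.09, 4.20 and 2.42 TPM in iron positive libraries, against 0.279, 1.03, 0 and 0 TPM in iron negative libraries. Its log2 fold change was 4.95 ± 0.80 (adjusted p = 0.0173), and 2 iron negative libraries had no count. Mylpf, the fast regulatory light chain (chromosome 7, 127208890 to 127214298), had the highest level of the thick filament genes, with 10.5, 15.4, 12.6 and 6.38 TPM in iron positive libraries, against 3.79, 2.71, 3.75 and 3.15 TPM in iron negative libraries. It rose by 2.16 ± 0.34 log2 units (adjusted p = 0.0173), and unlike Myl1 its level summed over transcripts was steady in all 4 iron negative libraries. The transcript Mylpf-201 held 287.8 estimated counts in iron positive libraries, against 0, 16.4, 0 and 8.7 in the iron negative libraries. Mylpf-205 held 14.5 in iron positive and 24.7 in iron negative libraries, and Mylpf-206 held 8.7 and 23.0. Mybpc2, fast myosin-binding protein C (chromosome 7, 44501699 to 44524656), had 0.776, 1.36, 0.724 and 0.394 TPM in iron positive libraries, against 0, 0.018, 0.051 and 0.0157 TPM in iron negative libraries. These were 179 estimated counts against 5, a log2 fold change of 5.10 ± 0.64 (adjusted p = 0.0155).

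The myosin heavy chain genes Myh1, Myh2, Myh3, Myh4 and Myh8 lie side by side on chromosome 11 and share long stretches of near-identical sequence, so the split of reads among them is uncertain. Myh4, the heavy chain of the fastest (IIb) fibers (67238029 to 67260446), had 0.514, 0.642, 0.211 and 0.184 TPM in iron positive libraries, against 0.0091, 0, 0 and 0.0186 TPM in iron negative libraries. Its log2 fold change, 5.48 ± 0.79 (adjusted p = 0.0172), was the largest of the tested muscle genes. It rests on 146 estimated counts against 3, a scaled ratio of 50.3 with an exact 95% interval of 16.9 to 246.9 for counting error alone. Myh1, the heavy chain of IIx fibers (67200052 to 67224575), had 13, 34, 17 and 15 estimated counts in iron positive libraries, against 2, 3, 9 and 4 in iron negative libraries. Its log2 fold change was 2.17 ± 0.54 (adjusted p = 0.0337). On the TPM scale Myh1 overlapped, with 0.143 to 0.39 TPM in iron positive and 0.0319 to 0.508 TPM in iron negative libraries, and its log2 difference of log2(TPM + 0.1) was 0.40 (adjusted p = 0.709, limma). Without iron positive 3R its adjusted p was 0.0535. Myh2, the heavy chain of IIa fibers, had 19 estimated counts over the iron positive libraries and none over the iron negative ones. Set against a floor of 3 counts over the 4 libraries, Myh2 was at least 6.55-fold higher. The embryonic Myh3 had 7 estimated counts in iron positive and 3 in iron negative libraries, and the perinatal Myh8 had 4.3 and 11.4, so neither developmental myosin gave a difference at this depth.

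The slow and shared thick filament genes did not pass with the count filter. Myh7, the slow and cardiac heavy chain, ranged from 0.153 to 0.811 TPM in iron positive and from 0.0676 to 0.215 TPM in iron negative libraries (0.51 ± 0.36, adjusted p = 0.383). Myl2, the slow and ventricular regulatory light chain, had 3.61, 2.20, 3.39 and 1.70 TPM in iron positive libraries, against 4.26, 0.752, 2.45 and 5.15 TPM in iron negative libraries. Its log2 fold change was -0.05 ± 0.51 (adjusted p = 0.963), and it turned to 0.14 when libraries were scaled to the macrophage markers. Myl3, the slow essential light chain, had 12 estimated counts in iron positive and 3.1 in iron negative libraries, and 0.842 TPM in iron positive 3L, where it was at most 0.067 TPM in the other iron positive libraries. Mybpc1, slow myosin-binding protein C, had 70 estimated counts in iron positive and 2 in iron negative libraries, with 0.484, 1.19, 0.21 and 0.209 TPM in iron positive libraries. The scaled count ratio was 36.2 (exact 95% counting interval 9.65 to 304.8), and Mybpc1 passed without the filter (adjusted p = 0.0126). Mylk2, the kinase of the skeletal regulatory light chain, had 23 estimated counts in iron positive and 5 in iron negative libraries and did not pass.

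Of the 7 Z-disc and titin genes 4 were tested and 1 rose, Actn3, the fast fiber actinin (chromosome 19, 4861216 to 4877909). Actn3 had 2.10, 3.78, 1.63 and 0.859 TPM in iron positive libraries, against 0.211, 0.335, 0 and 0.0741 TPM in iron negative libraries. The lowest iron positive library was above the highest iron negative one, and the log2 fold change was 4.58 ± 0.72 (adjusted p = 0.0173). Actn2, the actinin of all fibers and of heart, had 0.731, 1.18, 0.587 and 2.12 TPM in iron positive libraries, against 0.962, 0.62, 1.17 and 1.20 TPM in iron negative libraries (0.42 ± 0.32, adjusted p = 0.404). Myoz1, a calcineurin-binding Z-disc protein of fast fibers, had 3.82, 3.59, 3.69 and 3.96 TPM in iron positive libraries, against 2.58, 3.41, 2.69 and 3.88 TPM in iron negative libraries. It did not pass (0.20 ± 0.19, adjusted p = 0.507), and 1 iron negative library lay within the iron positive range. Ttn, the giant spring protein titin, had 50 estimated counts in iron positive and 38 in iron negative libraries (0.43 ± 0.66, adjusted p = 0.698). Tcap, the titin cap protein, was below the filter with 1.78, 5.0, 1.83 and 0.821 TPM in iron positive libraries, against 0.516, 0.176, 0.163 and 0.0778 TPM in iron negative libraries, and passed without it (3.16 ± 0.70, adjusted p = 0.0237). The Z-disc adaptor Ldb3 (24 estimated counts in iron positive and 4 in iron negative libraries) and the slow-type Myoz2 (24 and 3) did not pass without the filter.

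Of the 6 calcium handling genes 2 were tested and 1 rose. Atp2a1, the fast fiber calcium pump SERCA1 (chromosome 7, 126445858 to 126463108), had 1.82, 2.70, 1.33 and 0.502 TPM in iron positive libraries, against 0.357, 0.292, 0.0764 and 0.0866 TPM in iron negative libraries. The groups did not overlap, and the log2 fold change was 3.20 ± 0.60 (adjusted p = 0.0184). Ryr1, the calcium release channel, had 104.2 estimated counts in iron positive and 50.7 in iron negative libraries and did not pass (1.08 ± 0.35, adjusted p = 0.0725), although it was higher in all 4 pairs in CPM. Sln, sarcolipin, a small inhibitor of the pump, had 0.61, 0.679, 0.815 and 0.369 TPM in iron positive libraries and no count in any iron negative library. With 44 estimated counts against the floor of 3 it was at least 15.2-fold higher, and it passed without the filter (adjusted p = 0.0111). Trdn, triadin, which links the release channel to its calcium store, had 45 estimated counts in iron positive and 3 in iron negative libraries, a scaled ratio of 15.5 (exact 95% counting interval 4.98 to 78.0; adjusted p = 0.0312 without the filter). Cacna1s, the voltage sensor of the muscle membrane, had 36 and 9 (2.0 ± 0.52, adjusted p = 0.0423 without the filter). Casq1, the calcium-storing calsequestrin of fast fibers, had 0.959, 2.31, 1.73 and 0.386 TPM in iron positive libraries, against 0.417, 0.414, 0.385 and 0.44 TPM in iron negative libraries, and did not pass without the filter (1.75 ± 0.49, adjusted p = 0.0562).

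Of the 4 genes of metabolism and oxygen storage 3 were tested and 2 rose. Ckm, muscle creatine kinase (chromosome 7, 19404776 to 19422841), had 4.74, 11.2, 4.71 and 2.18 TPM in iron positive libraries, against 0.992, 0.62, 0.811 and 0.874 TPM in iron negative libraries. Its log2 fold change was 2.35 ± 0.40 (adjusted p = 0.0173), and it was highest in iron positive 3R. Pygm, muscle glycogen phosphorylase (chromosome 19, 6384399 to 6398459), had 12, 19, 20 and 12 estimated counts in iron positive libraries, against 6, 5, 3.5 and 7.5 in iron negative libraries, a log2 fold change of 1.49 ± 0.34 (adjusted p = 0.0277). On the TPM scale Pygm overlapped, at 0.535 to 0.749 TPM in iron positive and 0.22 to 0.547 TPM in iron negative libraries, and its log2(TPM + 0.1) difference was 0.66 (adjusted p = 0.183, limma). Without iron positive 3R its adjusted p was 0.0541. Mb, myoglobin, the heme protein that stores oxygen in muscle, had 2.74, 2.18, 0.554 and 0.818 TPM in iron positive libraries and no count in any iron negative library. With 68 estimated counts against the floor of 3 Mb was at least 23.4-fold higher, the largest of the 3 such bounds, and it passed without the filter (adjusted p = 0.0242). Eno3, the muscle form of the glycolytic enzyme enolase, had 17.0, 19.5, 15.7 and 15.5 TPM in iron positive libraries, against 14.5, 14.0, 19.3 and 25.6 TPM in iron negative libraries. Eno3 overlapped and did not pass (-0.09 ± 0.11, adjusted p = 0.616; 0.11 with scaling to the macrophage markers).

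Several genes that did not pass had most of their counts on transcripts not annotated as protein-coding. Tnni2 had 193.4 estimated counts on protein-coding transcripts and 271.6 on others in iron positive libraries, against 66.5 and 360.5 in iron negative libraries. The other transcripts thus took 58.4% of its counts in iron positive and 84.4% in iron negative libraries. Most were on the retained-intron transcript Tnni2-203, with 62.7, 36.7, 62.8 and 86.2 estimated counts in iron positive libraries, against 65.0, 72.2, 74.5 and 96.2 in iron negative libraries. Counted on protein-coding transcripts alone, Tnni2 had a log2 fold change of 1.60 ± 0.53 (adjusted p = 0.0825), above the 0.18 from all transcripts. Actn2 had 45.4 coding and 61.7 other counts in iron positive libraries, against 5 coding and 77.6 other counts in iron negative libraries. Myh7 had 3 coding and 47 other counts in iron positive libraries, against 1 coding and 35.6 other counts in iron negative libraries, so nearly all of its counts were on the other class. Casq1 had 26 coding and 53 other counts in iron positive libraries, against 3.7 and 20.3 in iron negative libraries. Myl2 did not separate on either class, with 17.2 coding and 38.8 other counts in iron positive libraries, against 18 and 43 in iron negative libraries. Eno3 and Myoz1 did not pass although nearly all their counts were on coding transcripts. With protein-coding transcripts alone 20 of the 40 genes were tested and 12 rose, where 8.39% of all genes were called higher; Pygm, Myh7, Myl2 and Actn2 were then below the filter. The summing over coding transcripts was added after the values were seen.

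**Figure D3:**
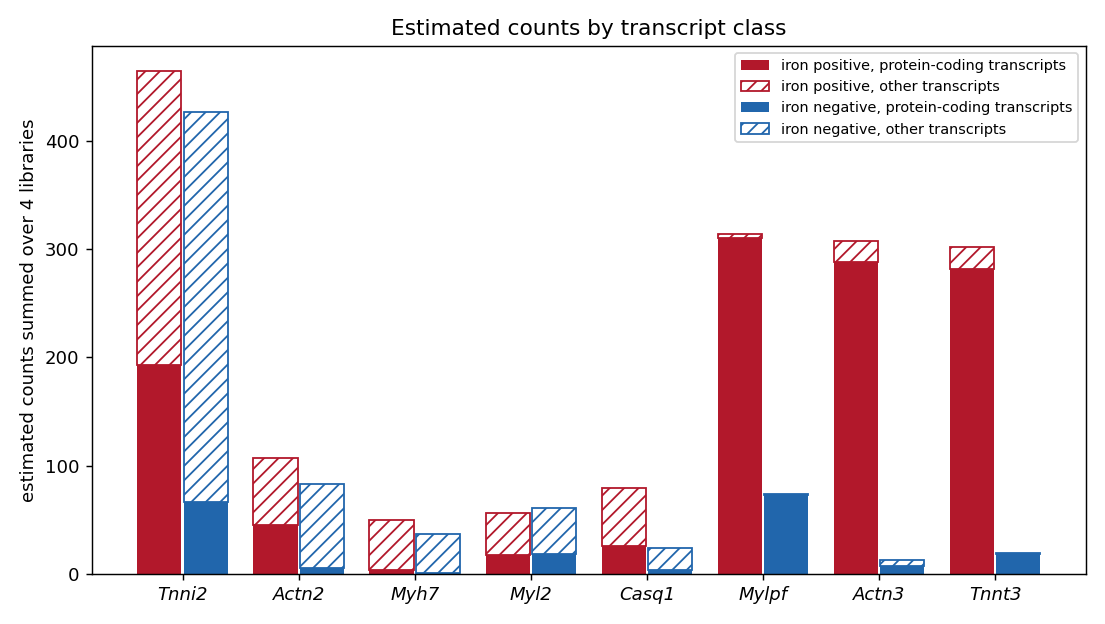
Bars are estimated counts summed over the 4 libraries of a fraction, with protein-coding transcripts solid and other transcripts hatched, iron positive left of iron negative for each gene. For Tnni2, Actn2 and Myh7 the iron negative bars are mostly hatched, while Mylpf, Actn3 and Tnnt3 are mostly solid in iron positive libraries.

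Most fast fiber genes passed, and 1 slow fiber gene did. Of 12 fast-type genes 11 were tested and 9 rose (median log2 fold change 3.64 over the tested genes), and of 7 slow-type genes 4 were tested and 1 rose (median 0.42); whether the lists differ was not tested. The fast genes that did not pass were Tnni2 and Myoz1, with Myh2 not tested. Without the filter 10 fast and 2 slow genes of these lists were higher. The median log2 fold changes were then 3.83 over 12 fast and 1.91 over 7 slow genes, with 6 of the 7 slow genes above 0. On protein-coding transcripts alone 9 of 11 tested fast genes and 1 of 2 tested slow genes rose. The slow list leaves out Mybpc1, which also passed without the filter, while the fast list holds its counterpart Mybpc2. The summed TPM of the fast genes was 59.0, 73.9, 43.5 and 33.8 in iron positive libraries, against 20.8, 28.5, 23.7 and 21.3 in iron negative libraries. The slow genes summed to 18.1, 19.1, 15.7 and 9.74 TPM in iron positive libraries, against 12.1, 8.5, 8.18 and 10.5 TPM in iron negative libraries, where 5L overlapped. The fast share of the 2 sums was 76.6, 79.5, 73.5 and 77.6% in iron positive libraries, against 63.2, 77.0, 74.3 and 67.1% in iron negative libraries. The mean share was 76.8% ± 2.51 in iron positive and 70.4% ± 6.36 in iron negative libraries (SD, n = 4 each), and the ranges overlapped in TPM. In CPM they did not overlap: the share was 83.5, 85.7, 80.9 and 82.4% in iron positive libraries, against 69.3, 76.2, 73.7 and 73.4% in iron negative libraries. Tnni2, Mylpf and Myoz1 made up most of the fast sum in each iron negative library. From protein-coding transcripts alone the share was 82.0, 84.0, 77.6 and 84.2% in iron positive libraries, against 63.8, 75.8, 77.9 and 73.9% in iron negative libraries.

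**Figure D4:**
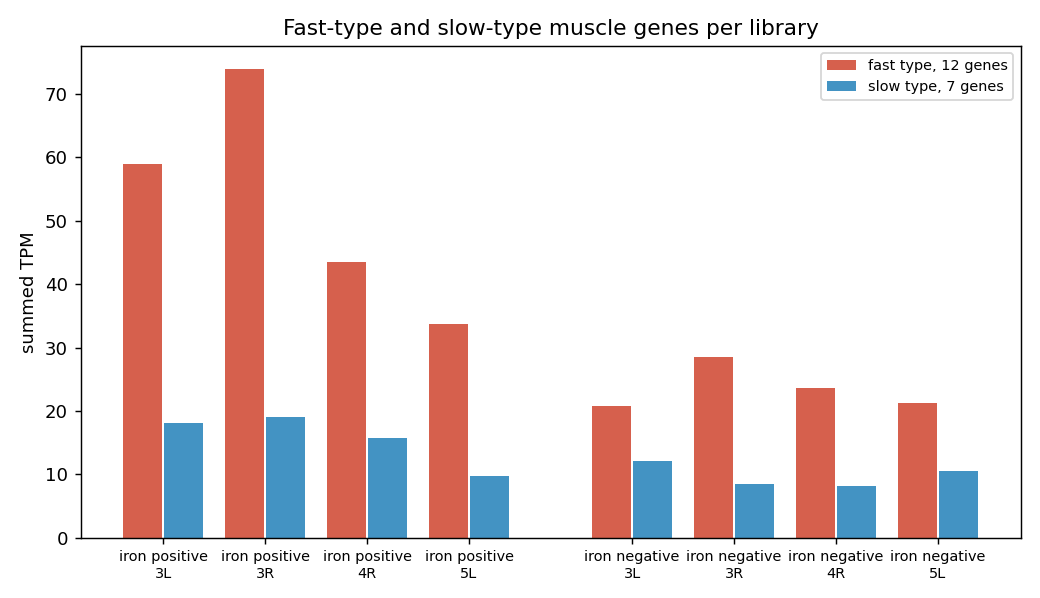
Bars are summed TPM of 12 fast-type and 7 slow-type genes in each library, iron positive libraries left. The fast sums are 33.8 to 73.9 TPM in iron positive and 20.8 to 28.5 TPM in iron negative libraries, and the slow sums of the 2 fractions overlap.

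The called muscle genes shared an order across the iron positive libraries. Their summed level was 73.7, 95.4, 52.4 and 31.9 TPM in iron positive 3L, 3R, 4R and 5L, against 7.41, 10.3, 7.73 and 7.02 TPM in the iron negative libraries. In CPM 10 of the 13 were highest in 3R and the other 3, Myl1, Tnnc1 and Tnnc2, in 3L. In CPM 11 were lowest in 5L, Tnnt3 in 4R and Myh1 in 3L. The 13 genes share their libraries, so this order is 1 pattern of 4 libraries and not 13 independent ones.

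Endothelial, pericyte and fibroblast markers were also high in 3R, but differed from the muscle genes in 3L. The macrophage sum was instead lowest in 3R, with 35405.2, 29937.9, 36288.3 and 37766.4 TPM in iron positive libraries. Iron positive 3L was compared with 4R in CPM. The value was higher in 3L for 11 of the 13 called muscle genes. It was higher in 3L for 0 of 13 endothelial, 0 of 11 pericyte and smooth muscle, and 1 of 12 fibroblast and fibrosarcoma markers (Fn1). This tally is of 1 pair of libraries, so its genes are not independent, and it was not among the planned tests. Pericyte and smooth muscle markers summed to 40.6, 245.1, 180.0 and 72.8 TPM in iron positive libraries, against 21.3 to 43.5 TPM in iron negative libraries. Fibroblast and fibrosarcoma markers summed to 295.9, 2105.6, 917.5 and 330.5 TPM in iron positive libraries, against 122.3 to 220.6 TPM in iron negative libraries. All 13 endothelial, 5 of 11 pericyte and 7 of 12 fibroblast markers rose (13, 8 and 10 with the tag as a block). Hemoglobin and other erythroid markers summed to 146.3, 739.6, 316.4 and 152.0 TPM in iron positive libraries, against 36.8 to 204.9 TPM in iron negative libraries, with none of 8 called in edgeR (5 tested, 4 higher at an unadjusted p under 0.05, 4 with the tag as a block and 1 by DESeq2). Hmox1, the heme-degrading enzyme of iron-handling macrophages, had 4739.0, 723.6, 4310.0 and 1439.5 TPM in the iron positive libraries and was lowest in 3R, where most called muscle genes were highest. Of the 14 macrophage markers 6 fell in edgeR, and 10 were lower at an unadjusted p under 0.05, 10 by DESeq2 and 10 with the tag as a block. None rose in any of these. The part of these cell types in the muscle result was not tested.

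**Figure D5:**
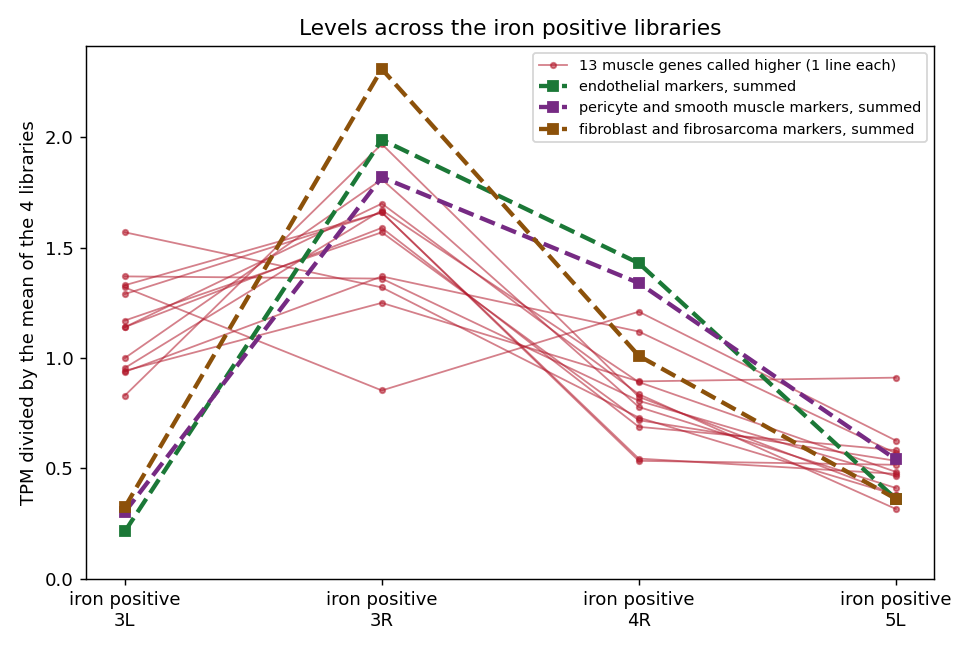
Thin lines are the 13 called muscle genes and thick dashed lines summed markers of 3 other cell types, each as TPM divided by its mean over the 4 iron positive libraries. The marker sums are at 0.214 to 0.324 of their mean in 3L, while the muscle genes are at 0.83 to 1.57; lines only join the values of an item.

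Markers of fat, epidermis and nerve had low summed levels in both fractions. Of 9 adipocyte markers, Adipoq and Lep were listed at 0 in all 8 libraries, and the summed level, nearly all of it Acsl1, was 11.7 to 12.4 TPM in iron positive and 11.9 to 13.9 TPM in iron negative libraries. Of 8 keratinocyte markers, Krt5 and Krt1 were listed at 0 in all libraries, and the sum was 4.10 to 5.74 TPM in iron positive and 2.86 to 3.76 TPM in iron negative libraries, with no overlap. In each library most of this sum was Sfn (3.08 to 4.36 TPM iron positive, 1.88 to 2.64 TPM iron negative). Of 7 Schwann cell and neural markers Sox10 was at 0 in all libraries, with sums of 15.0 to 17.6 TPM in iron positive and 14.6 to 16.7 TPM in iron negative libraries. Mbp made up most of each of these sums. No tested gene of these lists (1, 2 and 4 tested) had an adjusted p under the threshold; with unadjusted p under 0.05, 1 adipocyte gene was lower and 1 keratinocyte and 1 neural gene were higher, and DESeq2 called 1 gene higher in each of the keratinocyte and neural lists. The 7 defining genes of skeletal muscle (Acta1, Ckm, Tnnt3, Myh4, Mylpf, Tnnc2 and Mb) were higher in every iron positive library in CPM, summing to 58.5, 78.1, 39.6 and 25.4 TPM, against 5.39 to 6.73 TPM in iron negative libraries. These 7 are themselves among the 40 genes.

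Of 107 further muscle genes 48 were tested, 10 rose and 2 fell, where 8.49% of all genes tested were called higher and 5.21% lower. With the tag as a block 16 rose and 2 fell, in a fit that called 1705 genes higher and 1253 lower over all genes. The sarcomere, Z-disc and M-band list held 6 of the 10, among 13 tested of 32. Des, desmin, the intermediate filament of muscle that pericytes and smooth muscle also make, had 4.72, 9.66, 5.97 and 2.62 TPM in iron positive libraries, against 0.0878, 0.262, 0.206 and 0.0191 TPM in iron negative libraries (5.30 ± 0.62, adjusted p = 0.0118). Xirp2, an actin-binding protein of muscle attachment sites, had 84.9 estimated counts in iron positive and 1 in iron negative libraries, a scaled ratio of 87.9 (exact 95% counting interval 15.4 to 3512.5; adjusted p = 0.0172). Its TPM of 0.179, 0.115, 0.0876 and 0.0531 in iron positive libraries was highest in 3L. Unc45b, the chaperone of muscle myosin, had 2.50, 17.8, 14.8 and 5.07 TPM in iron positive libraries, against 0.206, 0.789, 0.28 and 0.016 TPM in iron negative libraries (5.34 ± 0.91, adjusted p = 0.0173). Unc45b was thus lowest in 3L, as the endothelial and pericyte sums were and as most called muscle genes were not. The small heat shock protein gene Hspb7 rose by 2.85 ± 0.55 (adjusted p = 0.0185), and Synpo2 and Cryab also rose.

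Among the remaining lists few genes passed, where 8.49% of all genes tested were called higher and 5.21% lower. Of 27 genes of excitation, calcium and the membrane 12 were tested and 2 rose, Cacna2d1, a calcium channel subunit (2.52 ± 0.63, adjusted p = 0.0349), and Asph, whose products include junctin (0.59 ± 0.16, adjusted p = 0.0447). Of 18 energy genes 11 were tested and 1 rose, the adenylate kinase gene Ak1 (1.25 ± 0.24, adjusted p = 0.0185). Of 11 genes of cardiac type 3 were tested and 1 rose, Myl4, the atrial and embryonic light chain (2.61 ± 0.65, adjusted p = 0.0345). Capn3, the muscle calpain, fell by 1.17 on the log2 scale (SE 0.21, adjusted p = 0.0177), with 2.93, 4.96, 2.60 and 3.36 TPM in iron positive libraries, against 6.39, 9.59, 8.43 and 6.04 TPM in iron negative libraries. Mef2c, a transcription factor of muscle that macrophages also express, averaged 72.9 ± 10.8 CPM in iron positive and 95.8 ± 7.4 CPM in iron negative libraries (SD, n = 4 each; log2 fold change -0.39 ± 0.11, adjusted p = 0.0468). With scaling to the macrophage markers, which shifted the overall median log2 fold change by 0.2, none of these 107 genes was called lower.

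The myogenic regulators were close to absent in both fractions. Pax7, which marks muscle stem cells, had 1 estimated count in iron positive and 0 in iron negative libraries, Myod1 had 1 and 3, Myf6 had 1 and 3, Myog had 9 and 5, and Myf5 had 11 and 1. None of these 5 passed the count filter, and of the 13 regulator genes 6 were tested, none rose and 1, Mef2c, fell. At an unadjusted p under 0.05, 2 of the tested regulators were higher, and 2 were called higher with the tag as a block and 1 by DESeq2. For Myf5 the scaled count ratio was 11.4, with an exact 95% interval of 1.65 to 489.7 for counting error alone, and it did not pass in the fit without the filter (adjusted p = 0.195). For Pax7, Myod1, Myf6 and Myog a difference was not detectable at this depth.

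Overlapping genes may limit some of these values, since the counting is not stated to use strand. Of the 40 genes 21 overlap a gene on the opposite strand, 8 of them among the 13 called. Those pairs include Tnnc1 with Nisch, Tnnc2 with Ube2c, Tnnt3 with Prr33, Atp2a1 with Rabep2, Ckm with A930016O22Rik and Myh1 with Myhas. The overlap is of whole gene spans, introns included. Reads could be confused only where exons of a pair overlap, and overlap of exons was not examined. For Ckm the transcript Ckm-203, which is 2742 bases long, held 207.9 of the estimated counts in iron positive and 63 in iron negative libraries, and Ckm-201 held 242.1 and 34.2. Mylpf, Myl1, Myh4, Actn3 and Pygm overlap no such gene.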

How the data were processed

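RNA of the iron positive eluate and the iron negative flowthrough was sequenced in bulk (4 libraries each). The authors ran kallisto 0.46.2 against mm10, per the submitters' processing notes; the transcript set and its release are not given in the sources used here. Per the file headers, the deposited tables hold estimated counts, which are not normalized, TPM values, which the authors' run corrected for effective transcript length and depth, and transcript lengths as other values. No replicates were pooled.

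Of 119414 transcripts 116728 matched GENCODE M21 (GRCm38, the assembly of mm10) by identifier without version; the 2686 others, 0.888 to 0.961% of the estimated counts, were left out. Counts and TPM were summed to 35975 genes, without strand, and counts were rounded for the tests. Totals were 19.04 to 24.31 M estimated counts per library, and errors are SDs over 4 libraries or SEs of the fold change. The main test was edgeR 4.0.16 (R 4.3.3), a quasi-likelihood fit on the fraction with TMM scaling and filterByExpr (13343 genes), and Benjamini-Hochberg adjusted p under 0.05 called a gene. Adjusted p-values of genes come from this edgeR fit unless another fit is named. DESeq2 1.42.0, limma 3.58.1 (voom, and trend on log2(TPM + 0.1) and log2(TPM + 1)), other scalings, filters, libraries left out and the tag as a block were alternatives. The scripts were tested on simulated data. Intervals and floors (3 counts over a group) cover counting error only.

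Deviations from the fraction mean correlated at 0.53 (3L), 0.52 (3R), 0.27 (4R) and 0.30 (5L) between same-tag libraries, against at most 0.26 for other pairs. The margin was small for iron positive 4R (0.26 with iron negative 3R) and 5L (0.23 with iron negative 3L). Shared tags were taken as pairs in the block fit, and the main fit does not use them. The 40 genes, the fast and slow assignment and all other lists were chosen with earlier results of these data known. All 40 are reported; values per library are given for genes that passed or averaged at least 1 TPM in either fraction, and further muscle genes are the up to 4 per list with the smallest adjusted p. Synpo2 and Cryab were named after their values were seen. Promoter sequences are from RefSeq (GRCm38.p6).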

Additional observations from a re-analysis of the deposited data

Results flagged for a closer look

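In 53 groups of 4 libraries (genes with at least 10 estimated counts, each fraction by itself), 2 values stood far from the other 3 of their group. Chance gives about 1 in 20 groups, a share that 2 of 53 does not exceed. Myl3, the slow essential light chain, was at 0.842 TPM in iron positive 3L, and the gap to the next library was 0.92 of the range. Pygm, muscle glycogen phosphorylase, was at 0.749 TPM in iron positive 3R, with a gap of 0.866 of the range. In estimated counts Pygm had 12, 19, 20 and 12 (3L, 3R, 4R, 5L), so 3R did not stand apart there. Myl3 rests on 12 estimated counts over the iron positive libraries.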

How the results depend on the processing

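The 13 called muscle genes kept a positive fold change in every fit that gave them a value, and of 242 such values 171 stayed past the threshold and 71 did not. The tag as a block changed 1 muscle gene's call (Tpm2) and gave 16 higher genes among the 107 further muscle genes and 1705 higher and 1253 lower over all genes. The number of muscle genes called higher was 21 without the filter and 6 with limma voom. Leaving out 1 library gave 0 to 19 muscle genes higher, with 24 or 29 of them tested. It gave 0 to 15 further muscle genes higher and 0 to 2 lower. Over all genes it gave 0 to 1487 higher and 0 to 979 lower. Of the further genes 2 were lower at first, 1 with library totals, voom, either TPM scale or coding transcripts, and 0 with macrophage scaling; 4 were higher with voom, 5 with log2(TPM + 0.1) and 3 with log2(TPM + 1). Over all genes library totals gave 362 lower (76.4% of calls higher, against 62.0%) and macrophage scaling 24 (98.5%). DESeq2 gave 1703 higher and 1070 lower, voom 189 and 273, log2(TPM + 0.1) 706 and 270, and log2(TPM + 1) 413 and 205. The mean fast share of iron positive libraries was 83.1% in CPM, where the fractions did not overlap (80.9 to 85.7% in iron positive and 69.3 to 76.2% in iron negative libraries), and 81.9% from coding transcripts. Reversed signs were those of uncalled genes near 0: Tnni2 (-0.09 and -0.08 on the 2 TPM scales), Eno3 (0.11, macrophage scaling) and Myl2 (0.01 library totals, 0.14 macrophage scaling, 0.01 block, 0.03 voom, 0.03 log2(TPM + 0.1), -0.35 to 0.31 without 1 library). The causes were not tested. Low counts limit the genes below the filter.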

Other observations

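Some calcium and membrane genes outside the 40 were high in the iron positive libraries in an order unlike that of the called muscle genes. Casq2, the calsequestrin of slow and cardiac muscle, had 0.0543, 2.12, 1.86 and 0.288 TPM in iron positive 3L, 3R, 4R and 5L, against 0, 0.0556, 0 and 0 TPM in the iron negative libraries. Cacng1, a calcium channel subunit of skeletal muscle, had 0.178, 1.39, 1.98 and 0.226 TPM in iron positive libraries, against 0, 0.0611, 0 and 0 TPM in iron negative libraries. Both were below the count filter and passed in edgeR without it (adjusted p = 0.0221 for Casq2 and 0.0219 for Cacng1). They were low in 3L and 5L and high in 3R and 4R, as were the endothelial and pericyte sums, whereas Pvalb, the calcium buffer of fast fibers, had 1.60, 2.72, 1.16 and 0.408 TPM in iron positive libraries, against 0, 0.262, 0 and 0.0773 TPM in iron negative libraries. Pvalb also passed without the filter (adjusted p = 0.0252). These 3 genes were singled out after their values were seen.

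Genes with no count in any iron negative library included Art1, a muscle ADP-ribosyltransferase, with 17 estimated counts in iron positive libraries. Smpx had 12, Myot 11, Klhl40 10 and Cav3 5 such counts. Scaled against the floor of 3 counts over the 4 libraries, the ratios were 5.86 (Art1), 4.14 (Smpx), 3.79 (Myot), 3.45 (Klhl40) and 1.72 (Cav3). These genes were singled out for having no iron negative count, so the direction was fixed beforehand. In edgeR without the filter Art1 passed (adjusted p = 0.0326). Smpx (0.0667), Myot (0.0701), Klhl40 (0.141) and Cav3 (0.294) did not pass in that fit, and Cav3 had counts only in 3R and 5L.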
